A study of Homo sapiens with 4 samples.

Results

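The cells described here are Ishikawa cells that carried much of the reporter transcript GFP, set against Ishikawa cells that carried little. Ishikawa is an established line of human endometrial adenocarcinoma. A cell was called GFP high when GFP gave 10% or more of all its unique molecular identifiers (UMIs, each standing for 1 captured transcript), and GFP low when GFP gave under 1%. Of the 4613 Ishikawa cells kept, 480 were GFP high, 2830 were GFP low and 1303 fell between and entered neither class. The 2 expression matrices of the series held 33173 cell barcodes, 14985 of them Ishikawa.

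The cells came from 4 cultures, kept for days in hormone-depleted medium and then given 10 nM 17β-estradiol (E2), the main estrogen, for 2, 4 or 8 h, or DMSO vehicle as 0 h. Each culture was tagged with a MULTI-seq membrane barcode, and all 4 were mixed into 1 droplet library, so each time is 1 culture with no replicate of its own. Treatment was therefore the same for both classes within a culture, and the comparison of classes was made 4 times over. The sources used here do not say how GFP and a second reporter, tdTomato, came to be in these cells. A further limit is that 80 barcodes were shared with the matrix of the other cell line, 22 of them kept Ishikawa cells and 2 of them GFP high.

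GFP is a jellyfish fluorescent protein used to mark cells, and a strongly expressed foreign protein occupies ribosomes and folding factors of the host cell. Mammalian cells meet unfolded cytosolic protein with the heat shock response, in which the factor HSF1 raises chaperones such as HSP70 and HSP40. Other stresses, among them amino acid shortage and double-stranded RNA, slow translation through phosphorylated eIF2α in the integrated stress response, which raises ATF3, DDIT3 and PPP1R15A. These are background facts, and none of them was measured as a cause here.

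GFP was present at some level in every kept cell. No kept cell had 0 GFP UMIs, and the lowest had 5. Whether the few GFP UMIs of such a cell were made in it or came from free RNA was not tested. The median GFP share was 20.9% in GFP high cells, with a maximum of 73.3%, and 0.248% in GFP low cells. These shares were the rule itself and are given as a description. GFP high cells were 10.4% of kept cells and held 71.0% of the GFP UMIs. At 0, 2, 4 and 8 h they numbered 97, 126, 94 and 163, against 446, 942, 541 and 901 GFP low cells. The share of kept cells that were GFP high was 12.5% at 0 h (95% exact binomial interval 10.3% to 15.03%), 8.51% at 2 h (7.14% to 10.1%), 10.5% at 4 h (8.60% to 12.7%) and 11.1% at 8 h (9.56% to 12.8%), without an order in time. No gap separated the classes. The nearest cells to the upper threshold had 9.995% and 10.06% GFP, and the nearest to the lower one 0.999% and 1.001%.

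**Figure D1:**
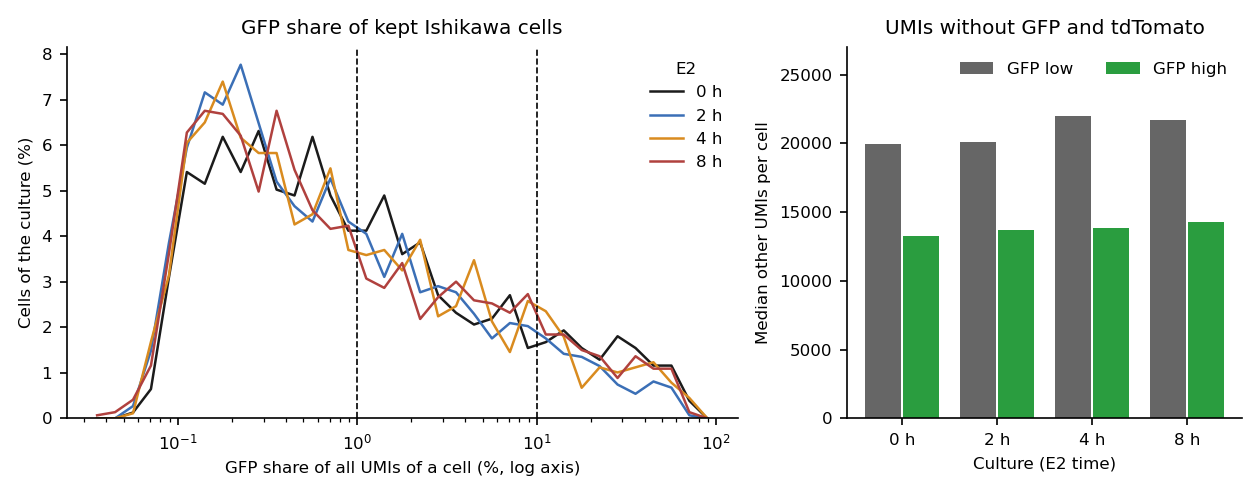
Left, the share of kept cells of each culture (y axis, percent) by GFP share of the cell (x axis, percent, log axis), with the thresholds of 1% and 10% dashed. The curves of the 4 cultures fall steadily from their peak, with no second mode at either threshold. Right, the median number of UMIs other than GFP and tdTomato per cell (y axis) in each culture, which was 13267 to 14261 in GFP high cells and 19937 to 21984 in GFP low cells.

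The classes also differed in other measures. The tdTomato transcript moved with GFP. As CPM, the usual scaling of counts to a common library total, taken over the UMIs other than the reporters, it stood at 228, 333, 348 and 295 in GFP high cells at 0, 2, 4 and 8 h, and at 7.35, 12.9, 12.7 and 11.3 in GFP low cells. The cells between lay between, at 27.4, 101, 88.1 and 57.4. At least 1 tdTomato UMI was found in 79.0% of GFP high cells and 16.4% of GFP low cells. The number of UMIs other than the reporters is in part set by the rule, which took cells of a fixed range of all UMIs and a GFP share of 10% or more. The median of all UMIs was 19526 in GFP high and 21016 in GFP low cells. The median of UMIs other than the reporters was 13267 to 14261 over the cultures, against 19937 to 21984, and the median of detected genes, which follows the same subtraction, 3660 to 3995, against 4472 to 4722. Mitochondrially encoded transcripts took a median of 4.82% to 5.18% of the other UMIs, against 3.98% to 4.33%. Of all UMIs, on which the 7% limit acted, they took 3.46% to 3.85%, against 3.97% to 4.31%. The order of the classes thus depended on the total used. Cells with transcripts of division were fewer among GFP high cells. In cells thinned to 8668 other UMIs, which left out 48 GFP high and 3 GFP low cells as too shallow, 42.5% to 51.3% of GFP high cells had a UMI of TOP2A or MKI67, against 60.4% to 62.8% of GFP low cells. Without thinning the shares were 49.5% to 61.1% and 71.3% to 76.7%. Depth and division thus differed with the class beside every result that follows, and their part in those results was not tested. Cells of closer depth and cells with no TOP2A or MKI67 UMI were also compared, and the counts of the main lists in them are given.

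The limits on cells acted unequally on the classes. They kept 50.4% of 953 called GFP high barcodes and 50.1% of 5650 called GFP low barcodes. Among GFP high barcodes 39.9% had too few genes and 19.9% too many mitochondrial UMIs, against 23.9% and 39.4% of GFP low barcodes. Of 517 barcodes that carried more than 1 tag and met the same limits, 63 (12.2%) were GFP high. These were left out, but the tags cannot mark a pair of cells from a single culture.

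Markers of the line were present in both classes. Of 15 epithelial and endometrial markers, 13 passed the minimum of 10 CPM and FOXA2 was at 0 in all 8 pools. Their summed level was 5088 to 6122 CPM in the GFP low pools and 4690 to 5236 CPM in the GFP high pools. Of the 13, edgeR called 7 lower and 2 higher in GFP high cells, where it called 22.6% lower and 41.6% higher of all genes tested. The median of these markers was -0.17 on the log2 scale. At closer depth 8 were lower and 1 higher, and the median was -0.36. Of all 8406 genes tested there, edgeR called 1363 lower and 1963 higher. The summed level of 8 immune and endothelial markers was 2.89 to 4.42 CPM and 2.18 to 4.27 CPM, with none past the minimum and CDH5 at 0. Of 8 stromal markers, COL1A1 and ACTA2 passed the minimum and LUM and PDGFRB were at 0. The stromal sum was 137 to 176 CPM in GFP low and 52.0 to 76.9 CPM in GFP high pools. Of 10 markers of T-47D, the breast line of the series, 3 passed the minimum and PIP and TFAP2B were at 0, with sums of 159 to 179.6 and 192 to 218 CPM.

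To compare the transcriptomes, UMIs were summed over the cells of each class and culture, which gave 8 pools of 1300929 to 2423159 other UMIs for GFP high and 8985623 to 19582704 for GFP low. Levels are CPM of the total without GFP and tdTomato, so the reporters themselves take nothing from the total. Fold changes are log2((CPM high + 1)/(CPM low + 1)) within a culture, a scale that understates the change of low genes. A pool cannot tell more cells with a transcript from more transcript per cell, so shares of thinned cells are added for leading genes. Of 8306 genes past the minimum, 5670 (68.3%) differed in the same direction at all 4 times, 3593 of them higher in GFP high cells and 2077 lower. By the 1.5-fold rule, at least 1.5-fold in that direction at each time, 912 genes were higher and 193 lower. That is 11.0% and 2.32% of the genes tested. A gene could pass the minimum through the GFP high pools alone. The mean of the GFP low pools was under 10 CPM for 179 of 783 higher coding genes. It was so for 73 of 120 higher long noncoding RNAs. HSPA6, MAFF, CREBRF, DUSP1, DDR2, GABARAPL1, BBC3, RELB and DHRS3, described below, are among the coding genes concerned. The counts of gene lists given below include such genes. At 2-fold the counts were 307 and 25, and at a smaller fold of 0.32 on the log2 scale 1785 and 648. These genes were chosen by their values, so their fold changes are a description. The same holds where pools of such genes are said not to overlap.

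The fit across all genes used edgeR's quasi-likelihood test on the 8 pools with the culture as a block and Benjamini-Hochberg adjustment at 0.05. It called 3455 genes higher and 1874 lower, 41.6% and 22.6% of the genes tested, and among them all 912 and 193 genes of the 1.5-fold rule. Its p-values measure only the spread of the difference over 4 cultures of 1 droplet library, with 3 residual degrees of freedom and a spread shared between genes. Direction depended on the scaling. The median gene was higher by 0.13 on the log2 scale in GFP high cells, and both other scalings below bring it to -0.00 or -0.01. Of the edgeR calls, 64.8% were higher when plain totals were used. That share was 50.6% under TMM factors (2651 higher, 2584 lower) and 49.8% when DESeq2's median-of-ratios size factors were used (2604 and 2620). By the 1.5-fold rule 82.5% of genes were higher with plain totals, 65.1% under TMM (644 and 345) and 64.0% under DESeq2's factors (634 and 356). In cells of closer depth, with 8500 to 16000 other UMIs in both classes, 399 genes were higher by the 1.5-fold rule and 164 lower, and edgeR called 1963 and 1363. Without the 4 h culture the lower genes numbered 298.

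Genes were then chosen on 3 cultures and read in the culture left out, where their values had no part in the choice. Of the genes higher in the other 3 cultures, 881 of 962 (91.6%) were at least 1.5-fold higher at 0 h, where 23.8% of all genes tested in that step were. At 2 h they were 929 of 1130 (82.2%, all genes 18.6%), at 4 h 906 of 1048 (86.5%, all genes 20.6%) and at 8 h 913 of 1012 (90.2%, all genes 20.9%). Of the genes lower in the other 3 cultures, 196 of 224 (87.5%) were at least 1.5-fold lower at 0 h, where 11.1% of all genes were. At 2 h they were 193 of 246 (78.5%, all genes 7.61%), at 4 h 193 of 298 (64.8%, all genes 7.50%) and at 8 h 194 of 237 (81.9%, all genes 7.77%). Each step had its own minimum, over the 3 cultures used. Of the 8306 genes of the full comparison, 24.4%, 18.6%, 20.8% and 21.0% were higher by that fold at 0, 2, 4 and 8 h and 10.8%, 7.56%, 7.39% and 7.74% lower. The direction held in the culture left out for 98.9% to 99.9% of higher and 98.2% to 99.6% of lower genes. Of all genes, 58.2% to 60.2% were higher there and 39.8% to 41.8% lower. The cultures shared a droplet library and the free RNA in it.

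Barcodes for which no time could be called gave a second reading that shared no cell with the comparison. Within the same limits they held 216 GFP high and 1900 GFP low cells, as 1 pool each. All 912 higher and all 193 lower genes had the same direction there, where 61.3% of all genes were higher and 38.7% lower. At least 1.5-fold in that direction were 895 of the 912 (98.1%) and 170 of the 193 (88.1%), where 23.3% of all genes were higher by that fold and 7.89% lower. The median log2 fold change of the higher genes was 1.17 in these barcodes and 1.06 in the 4 cultures, and that of the lower genes -0.91 and -0.94.

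**Figure D2:**
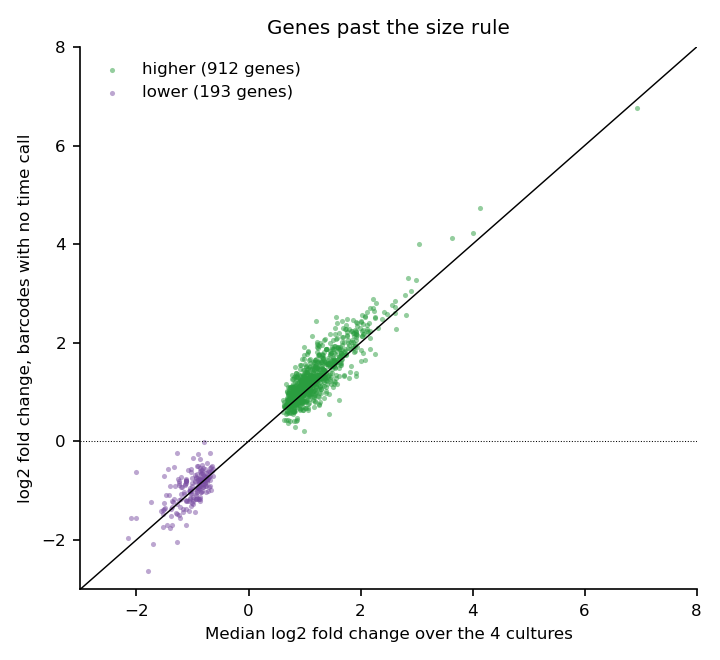
Each point is a gene past the 1.5-fold rule, with its median log2 fold change over the 4 cultures on the x axis and its log2 fold change in barcodes with no time call on the y axis (green 912 higher genes, purple 193 lower genes). The line marks equal values, and HSPA6 is the point at the upper right, at 6.93 and 6.76.

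Cytosolic chaperones are given first, since HSPA6 had the largest difference, while ATF3, a stress factor, came before HSPA1B. HSPA6 (ENSG00000173110, GRCh38 chromosome 1, 161524540 to 161526894) encodes an inducible HSP70 that is nearly silent in unstressed cells. It stood at 1.67, 0.879, 0.834 and 0.664 CPM in GFP low pools at 0, 2, 4 and 8 h, from 10 to 17 UMIs a pool, and at 331, 113, 317 and 199 CPM in GFP high pools. The pools did not overlap, and the log2 fold change was 5.92 to 7.44. Few cells carried most of it, since the top 5% of GFP high cells held 65.5% of its UMIs in that class. In thinned cells 19.5% to 28.0% of GFP high cells had an HSPA6 UMI, against 0.222% to 1.11% of GFP low cells.

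HSPA1B (ENSG00000204388, chromosome 6, 31827738 to 31830254), the main inducible HSP70, stood at 34.5, 30.2, 27.7 and 31.3 CPM in GFP low pools and at 615, 484, 471 and 491 CPM in GFP high pools. Its log2 fold change was 3.93 to 4.12. Its near-identical neighbour HSPA1A was under the minimum, and reads of the pair can be split or lost in counting, so the level of either gene is uncertain. DNAJB1 (ENSG00000132002), an HSP40 co-chaperone of HSP70, stood at 78.2, 66.1, 65.3 and 69.6 CPM against 452, 339, 427 and 427 CPM. HSPH1 (ENSG00000120694), a nucleotide exchange factor for HSP70, stood at 23.4, 22.4, 24.1 and 28.2 CPM against 179.9, 125, 136 and 165 CPM. The pools of the classes did not overlap in any of these 3 genes.

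The chaperone list as a whole followed. Of 28 cytosolic heat shock genes past the minimum, 14 were higher by the 1.5-fold rule and none lower, against 11.0% and 2.32% of all genes. The edgeR test called 26 higher and none lower, against 41.6% and 22.6% of all genes. HSF1, the factor that drives the response, and PTGES3, the p23 co-chaperone of HSP90, were the 2 not called. HSF1 stood at 33.6 to 35.7 CPM in GFP low and 27.7 to 41.3 CPM in GFP high pools, which overlapped (edgeR log2 fold change -0.14 ± 0.12 SE, adjusted p = 0.30). The list median was 0.82 on the log2 scale, against 0.13 for all genes, and 0.69 with TMM factors, 0.82 in cells with no TOP2A or MKI67 UMI and 0.82 at closer depth. BAG3, a co-chaperone of selective autophagy, was 25.5 to 47.1 CPM in GFP low and 111 to 141 CPM in GFP high pools. HSPB1, a small heat shock protein, was 611 to 846 against 1837 to 2148 CPM, and HSP90AA1, the inducible HSP90, 2803 to 3170.2 against 4854 to 5472 CPM. CRYAB, a small heat shock protein, was called higher by edgeR but met the 1.5-fold size at only 3 of 4 times, and its pools overlapped, with 10.7, 15.3, 11.2 and 8.63 CPM against 131, 97.0, 91.9 and 13.2 CPM. HSPA8, HSP90AB1 and HSPD1, chaperones made in every cell, were called higher by edgeR with small median log2 fold changes of 0.45, 0.17 and 0.14.

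The promoters of the 4 raised chaperones that hold a heat shock element by the letters searched are shown because the element is the known binding site of HSF1. The letters searched were GAA, TTC and GAA, each parted from the next by 2 bases of any kind, and TTC, GAA and TTC in the same spacing for the other strand, in 250 bases before to 50 after each RefSeq gene start (GRCh38.p14). Of 27305 promoters, 0.487% held a match. Of the 912 higher genes, 668 had a promoter in this set and 4 held a match (0.599%), HSPA6, CHORDC1, DNAJA1 and DNAJB6. None of 148 promoters of lower genes did. Of 24 promoters of the heat shock list 6 held one (25.0%), against 0.286% of the 6638 promoters of genes tested. HSPA1B, DNAJB1, HSPH1, HSPB1, BAG3, DNAJB2, DNAJB4, HSPA4L and HSP90AA1, all raised, held none of these letters in this window. A match is a description and not a site shown to be bound. The 4 promoters lie at chr1:161524290-161524589 (HSPA6, plus strand), chr11:90223000-90223299 (CHORDC1, minus), chr9:33025023-33025322 (DNAJA1, plus) and chr7:157336754-157337053 (DNAJB6, plus), written 5′ to 3′ on the gene's strand with the matched letters in capitals.
HSPA6: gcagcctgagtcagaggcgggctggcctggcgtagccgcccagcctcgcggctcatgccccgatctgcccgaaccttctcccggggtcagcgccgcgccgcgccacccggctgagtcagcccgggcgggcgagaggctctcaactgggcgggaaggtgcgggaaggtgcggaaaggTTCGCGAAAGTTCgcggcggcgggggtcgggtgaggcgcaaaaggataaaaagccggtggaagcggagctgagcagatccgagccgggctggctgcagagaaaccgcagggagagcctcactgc
CHORDC1: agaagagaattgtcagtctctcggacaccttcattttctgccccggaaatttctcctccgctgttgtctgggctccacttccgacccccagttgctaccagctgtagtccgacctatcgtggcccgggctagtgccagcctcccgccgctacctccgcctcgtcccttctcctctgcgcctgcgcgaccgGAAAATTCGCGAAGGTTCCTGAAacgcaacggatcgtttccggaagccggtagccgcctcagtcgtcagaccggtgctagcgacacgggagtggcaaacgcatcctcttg
DNAJA1: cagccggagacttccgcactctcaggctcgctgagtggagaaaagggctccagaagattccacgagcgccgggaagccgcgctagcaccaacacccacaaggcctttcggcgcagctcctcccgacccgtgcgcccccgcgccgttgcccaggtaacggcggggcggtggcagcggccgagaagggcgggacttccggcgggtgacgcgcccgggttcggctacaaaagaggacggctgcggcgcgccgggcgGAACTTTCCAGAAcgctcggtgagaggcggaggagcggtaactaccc
DNAJB6: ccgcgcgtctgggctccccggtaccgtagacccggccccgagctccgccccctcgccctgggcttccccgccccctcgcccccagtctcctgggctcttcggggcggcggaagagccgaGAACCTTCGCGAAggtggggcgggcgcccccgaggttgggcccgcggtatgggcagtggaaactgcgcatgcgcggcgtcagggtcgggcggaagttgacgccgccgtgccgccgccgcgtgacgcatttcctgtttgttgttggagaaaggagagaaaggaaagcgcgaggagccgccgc

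CHORDC1, a co-chaperone of HSP90, held 3 overlapping matches that begin 60, 55 and 50 bases before its start. Its level was 90.4 to 102 CPM in GFP low and 157 to 184 CPM in GFP high pools. HSPA6, with 1 match 74 bases before its start, had the largest median log2 fold change of the 912 genes.

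A second group was made of transcription factors and regulators of stress signalling. ATF3 (ENSG00000162772, chromosome 1, 212565407 to 212620777), a stress-induced factor of the CREB family, stood at 22.7, 11.9, 15.8 and 15.7 CPM in GFP low pools and 353, 294, 298 and 289 CPM in GFP high pools. MAFF (ENSG00000185022), a small Maf factor, stood at 2.78, 2.79, 3.59 and 4.60 CPM against 73.8, 49.6, 42.0 and 63.6 CPM. GADD45B (ENSG00000099860), a stress sensor upstream of MAP kinases, stood at 35.6, 26.9, 34.4 and 38.3 CPM against 304, 198, 288 and 425 CPM. All 3 were higher in GFP high pools of every culture without overlap, and 46.9% to 69.0% of thinned GFP high cells had an ATF3 UMI, against 6.80% to 12.2% of GFP low cells.

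PPP1R15A (ENSG00000087074), the phosphatase subunit GADD34 that reverses phosphorylation of eIF2α, stood at 21.3, 17.3, 21.1 and 21.8 CPM in GFP low pools and 204, 138, 180.2 and 139 CPM in GFP high pools. CREBRF, a regulator of CREB3 proteins, went from 3.88 to 6.12 CPM in GFP low to 36.3 to 58.4 CPM in GFP high pools. DUSP1, a phosphatase of MAP kinases, went from 3.72 to 5.42 CPM to 27.2 to 44.6 CPM. The long noncoding RNA AC044849.1 (ENSG00000272256) and the collagen receptor kinase DDR2 completed the 12 highest, at 2.92 to 4.60 against 27.8 to 42.3 CPM and 1.56 to 2.42 against 13.1 to 27.7 CPM.

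**Figure D3:**
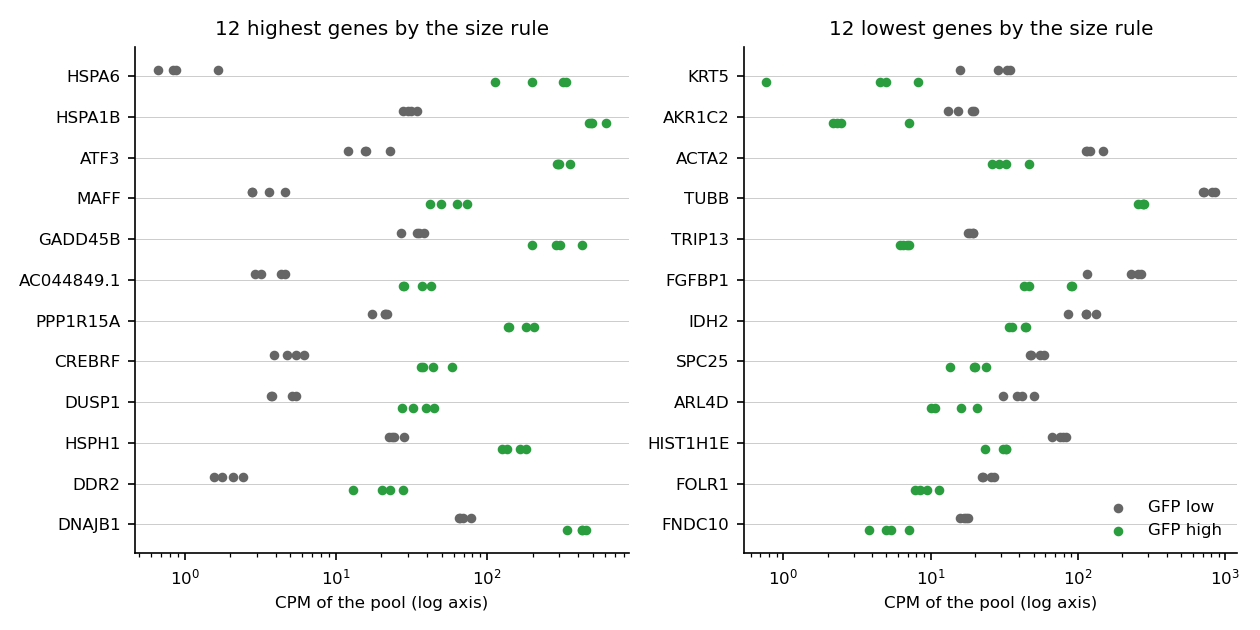
CPM (x axis, log axis) of the 12 highest genes (left) and the 12 lowest genes (right) past the 1.5-fold rule, ordered by the smallest fold change of the 4 cultures. Each point is 1 pool, grey GFP low and green GFP high, 4 cultures each, and in all 24 genes the 4 green points lie on the same side of the 4 grey points. The genes were chosen by these same values, so this separation is a description and no support.

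Of 24 genes of the integrated stress response past the minimum, 9 were higher by the 1.5-fold rule and none lower, and edgeR called 18 higher and 3 lower. For this and each list that follows, the shares over all genes in the main comparison are 11.0% higher and 2.32% lower by the rule. By edgeR they are 41.6% and 22.6%. At closer depth edgeR called 1963 higher and 1363 lower of 8406 genes, and 399 and 164 met the rule. In cells with no TOP2A or MKI67 UMI it called 2608 and 1180 of 8219, and 685 and 138 met the rule. The 9 were PPP1R15A, DDIT3 (the factor CHOP, median log2 fold change 2.05), SESN2 (1.73), TRIB3 (1.68), GADD45A (1.46), VEGFA (1.30), CHAC1 (1.19), CEBPG (1.11) and STC2 (0.84). ATF4 itself, the factor of this response, was raised less, at 0.52. Its targets of amino acid supply moved little or fell, with ASNS at 0.27 and PSAT1 at 0.22, SLC7A5 at -0.17 and PHGDH at -0.24. The list median was 0.51, 0.37 with TMM factors and 0.33 at closer depth, where 3 genes met the rule and edgeR called 14 higher and 2 lower. The unfolded protein response of the endoplasmic reticulum gave no such shift. Of 22 genes, HERPUD1 and DNAJB9 were higher by the rule, edgeR called 9 higher and 6 lower, and the median of 0.14, next to 0.13 for all genes, turned to -0.01 under TMM and -0.02 under DESeq2's factors. It was -0.11 in cells with no TOP2A or MKI67 UMI and -0.17 at closer depth. HSPA5, the chaperone BiP of that compartment, was at -0.02, and SDF2L1, a cofactor of BiP, fell (138 to 158 CPM in GFP low and 74.3 to 145 CPM in GFP high pools, edgeR log2 fold change -0.52 ± 0.09 SE, adjusted p = 7.6e-06).

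Of 17 immediate-early genes past the minimum, 11 were higher by the 1.5-fold rule and none lower, and edgeR called 14 higher and none lower. Besides ATF3 and DUSP1 these were FOSL1 (2.27), IER2 (2.17), BTG1 (1.89), JUN (1.87), KLF10 (1.37), CTGF (1.37), JUND (1.35), CYR61 (0.99 on the log2 scale) and KLF6 (10.2 to 14.4 CPM in GFP low and 16.9 to 42.3 CPM in GFP high pools). FOS, FOSB, EGR3 and NR4A1 were under the minimum. IER3 did not share the direction, with 27.7, 6.57, 7.25 and 7.86 CPM in GFP low pools and 10.8, 5.45, 8.55 and 13.6 CPM in GFP high pools (edgeR adjusted p = 0.67). Of 9 YAP target genes, which read out the Hippo pathway, 6 were higher by the rule and edgeR called all 9 higher, led by LATS2 (1.58), ANKRD1 (1.56) and CTGF, a gene of both lists. Of the 9, edgeR called 7 higher under TMM and 7 in cells with no TOP2A or MKI67 UMI.

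PPP1R15A, DUSP1 and MAFF held the full cAMP response element TGACGTCA, the site of the ATF and CREB factors, which reads the same on both strands. It was in 33 of 668 promoters of higher genes (4.94%), 9 of 148 of lower genes (6.08%), 3.87% of promoters of genes tested and 1.98% of all promoters, so its share was not larger in higher than in lower genes. The promoters lie at chr19:48872171-48872470 (PPP1R15A, plus strand), chr5:172771146-172771445 (DUSP1, minus) and chr22:38201744-38202043 (MAFF, plus). Capitals mark the element, which starts 58, 125 and 54 bases before the gene start.
PPP1R15A: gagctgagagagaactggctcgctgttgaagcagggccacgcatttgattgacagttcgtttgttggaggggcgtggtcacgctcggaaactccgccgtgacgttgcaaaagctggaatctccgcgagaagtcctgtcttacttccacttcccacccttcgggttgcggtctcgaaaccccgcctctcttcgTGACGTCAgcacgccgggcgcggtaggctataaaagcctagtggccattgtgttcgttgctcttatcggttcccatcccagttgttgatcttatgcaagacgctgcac
DUSP1: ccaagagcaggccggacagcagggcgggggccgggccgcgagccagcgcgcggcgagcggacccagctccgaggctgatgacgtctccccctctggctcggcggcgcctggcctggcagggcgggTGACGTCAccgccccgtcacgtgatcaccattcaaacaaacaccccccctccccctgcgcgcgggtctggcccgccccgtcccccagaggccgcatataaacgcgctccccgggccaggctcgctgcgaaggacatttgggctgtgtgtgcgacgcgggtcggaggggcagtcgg
MAFF: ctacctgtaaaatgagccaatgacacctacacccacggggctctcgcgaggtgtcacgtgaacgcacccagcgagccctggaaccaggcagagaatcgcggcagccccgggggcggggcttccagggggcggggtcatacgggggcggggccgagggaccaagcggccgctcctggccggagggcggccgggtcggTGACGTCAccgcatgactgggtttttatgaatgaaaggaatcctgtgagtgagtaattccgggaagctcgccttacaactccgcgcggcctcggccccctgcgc

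Protein disposal split by route. Of 17 ubiquitin and autophagy genes, 6 were higher by the 1.5-fold rule and none lower, and edgeR called 15 higher and 1 lower. Among the 6 were GABARAPL1 (2.00), MAP1LC3B (1.30) and ATG12 (1.06), which build the autophagosome, and NBR1 (0.94) and SQSTM1 (0.74), which carry ubiquitinated cargo to it. VCP, the segregase that unfolds ubiquitinated protein, was the member called lower, with a median log2 fold change of -0.21. Of 31 proteasome subunits, none met the rule, and edgeR called 3 higher and 17 lower with a median of -0.19. In cells with no TOP2A or MKI67 UMI these were 4 and 8, and at closer depth 3 and 13. PSMB5, a catalytic subunit, stood at 368 to 381 CPM in GFP low and 252 to 277 CPM in GFP high pools. Targets of NRF2, the factor of oxidative stress, did not rise either. Of 13, edgeR called 1 higher and 7 lower, with NQO1 (-0.82) and PGD (-0.84) lower by the rule. At closer depth none met the rule and edgeR called 5 lower. Interferon-stimulated genes gave 4 higher and 2 lower of 10 by edgeR, shares near the 41.6% and 22.6% of all genes, and none by the rule. IFIT2 among them stood at 94.5, 12.5, 1.42 and 0.825 CPM in GFP high pools at 0, 2, 4 and 8 h and at 2.45, 2.59, 0.917 and 3.98 CPM in GFP low pools, so only 2 of 4 cultures were clearly higher. Without the 0 h culture it fell under the minimum, and DESeq2 did not call it (adjusted p = 0.26).

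Of 15 p53 targets, 2 were higher by the rule, BBC3 (1.93), an inducer of apoptosis, and CDKN1A (1.52), the cyclin-dependent kinase inhibitor p21, and edgeR called 11 higher and 3 lower. The count by the rule is near the 11.0% of all genes. In cells with no TOP2A or MKI67 UMI edgeR called 7 higher and 1 lower, and at closer depth 6 and 2. Of 21 genes of RNA polymerase II and splicing, 5 were higher by the rule and edgeR called 12 higher and 4 lower. The 5 were CLK1 (1.58), the kinase of SR proteins, the splicing factors TRA2A (1.63), TRA2B and SRSF5, and POLR2A, the large subunit of RNA polymerase II. At closer depth 2 of these 21 genes met the rule and edgeR called 8 higher and 5 lower. With TMM factors edgeR called 10 higher and 6 lower. Of 5 NF-kB targets, RELB (1.61) met the rule and edgeR called 3 higher. With TMM factors it called 1 of the 5, and at closer depth 1 of 4, where none met the rule.

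Growth and division genes were lower. Of 50 genes of G2 and mitosis past the minimum, 20 were lower by the 1.5-fold rule and none higher, and edgeR called 46 lower and none higher, with a list median of -0.88. TUBB, a β-tubulin, stood at 850.4, 808, 711 and 702 CPM in GFP low and 275, 275, 282 and 254 CPM in GFP high pools. TOP2A, the topoisomerase of dividing cells, stood at 216, 188, 157 and 147 CPM against 69.2, 65.9, 75.5 and 53.2 CPM. Dividing cells were also fewer among GFP high cells, as given above. In cells with no TOP2A or MKI67 UMI, 25 genes of the list passed the minimum, and edgeR called 8 higher and 2 lower with a median of 0.03. Those cells were chosen by transcripts of division, without thinning, and shallower cells show such a UMI less often. This reading therefore cannot separate division from the GFP class. At closer depth edgeR called 13 of 46 lower and none met the rule (median -0.25). Of 39 S phase genes, 5 were lower by the rule and edgeR called 26 lower and 2 higher (median -0.38), led by RRM2, a subunit of ribonucleotide reductase, at 56.9 to 68.9 against 17.7 to 29.2 CPM. In cells with no TOP2A or MKI67 UMI none of 31 S phase genes met the rule and edgeR called 11 lower and 2 higher, and at closer depth 1 of 37 met it and edgeR called 15 lower and 1 higher.

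Genes of protein synthesis and energy metabolism were lower by less. Of the 51 ribosomal protein genes of the list, which does not hold every such gene, none met the 1.5-fold rule. The edgeR test called 38 lower and 2 higher, with a list median of -0.21. At closer depth it called 26 lower and 7 higher (median -0.11), and with every called barcode 28 and 6. With TMM factors it called 49 lower and 1 higher. RPL7A, outside the list and named after its value was seen, was lower by the rule, with a median log2 fold change of -0.90. RPL3 had the lowest median of the list, from 2466 to 2769 CPM in GFP low pools to 1361 to 1933 CPM in GFP high pools. RPLP1 was among the 2 called higher in the main comparison, from 8235 to 8490.2 CPM to 9748 to 10289 CPM. Of 23 ribosome biogenesis genes edgeR called 16 lower and 2 higher. Translation factors split, with 7 higher and 8 lower of 23, EIF5 (439 to 512 against 799 to 912 CPM) higher and EEF1D (410.4 to 453 against 246 to 271 CPM) lower by the rule. Of 17 glycolysis genes, LDHA (-0.93), GAPDH (-0.78) and the lactate exporter SLC16A3 (-1.23) were lower by the rule, and edgeR called 12 lower and 1 higher. Of 40 nuclear genes of the respiratory chain edgeR called 33 lower and 1 higher, while of 13 mitochondrially encoded genes it called 11 higher and 1 lower. The latter call depended on scaling, with 6 higher and 1 lower with TMM factors. It also depended on the limits on cells. With every called barcode, without those limits, edgeR called 3 higher and 2 lower. The list median was then 0.062, against 0.053 for all genes. Of 20 genes of cholesterol synthesis and uptake edgeR called 14 lower and 2 higher, with FDPS (-0.93) and ACAT2 (-0.99) lower by the rule. Of 14 histone genes it called 6 higher and 5 lower (median -0.03), against 7 and 2 of 13 in cells with no TOP2A or MKI67 UMI (median 0.40) and 8 and 2 at closer depth (median 0.22).

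**Figure D4:**
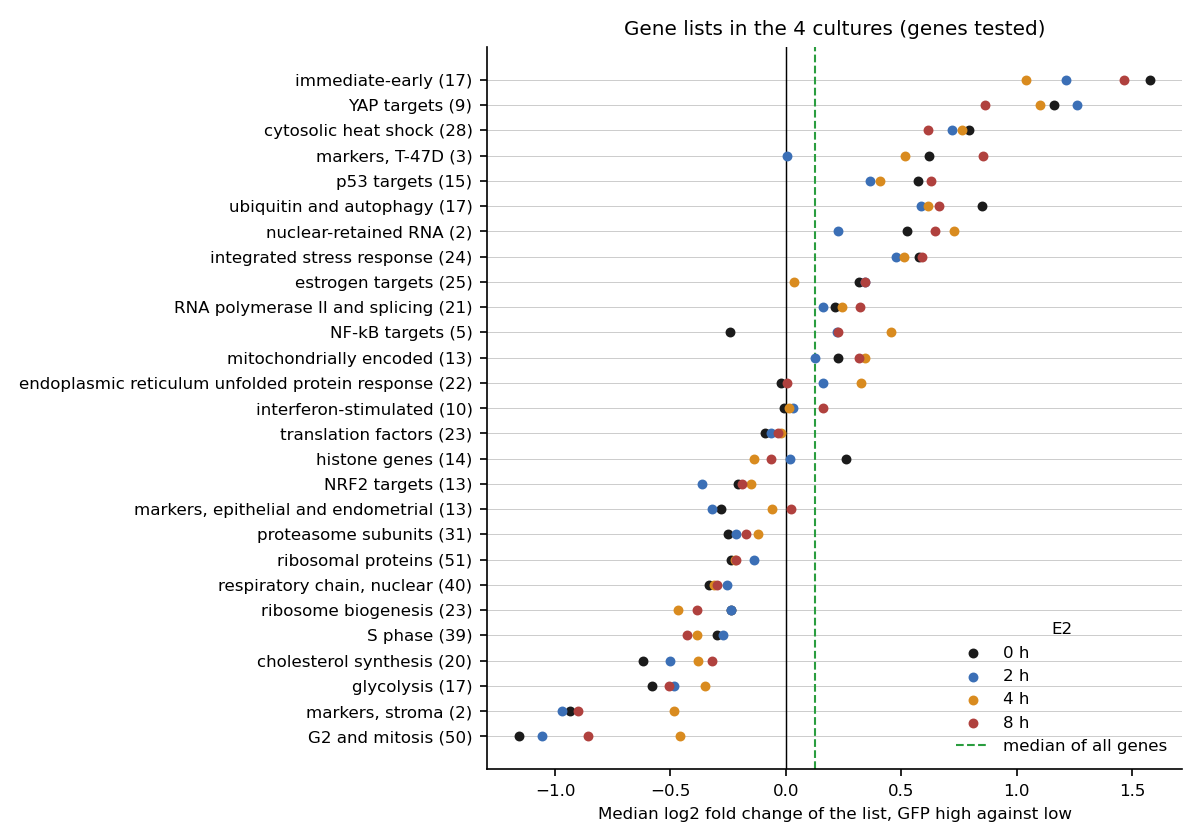
Median log2 fold change of each gene list (x axis), GFP high against low, at 0, 2, 4 and 8 h (points), with the number of genes tested in brackets and the median of all genes, 0.13, dashed. Immediate-early genes and YAP targets have the 2 highest medians in every culture, followed by heat shock genes at 2 and 4 h, and genes of G2 and mitosis lie below 0 in all 4.

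Several of the lowest genes belonged to no such list. KRT5, a basal keratin, stood at 34.5, 33.0, 28.5 and 15.9 CPM in GFP low pools and 0.769, 8.17, 4.99 and 4.54 CPM in GFP high pools. AKR1C2, an aldo-keto reductase with near-identical family members, stood at 13.1 to 19.8 against 2.18 to 7.12 CPM. FGFBP1, a carrier of fibroblast growth factors, stood at 269, 254, 230.2 and 114 CPM against 43.0, 91.0, 89.8 and 46.2 CPM. IDH2, the mitochondrial isocitrate dehydrogenase, stood at 85.0 to 132 against 34.3 to 44.2 CPM, and FOLR1, the folate receptor, at 22.3 to 27.0 against 7.84 to 11.4 CPM. These pools did not overlap either. PAX8, a factor of the endometrial lineage, was lower in every culture (110.0 to 154 against 65.6 to 97.0 CPM), while the tight junction gene CLDN4 was the 1 marker of the epithelial list higher by the rule.

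Long noncoding RNAs met the rule more often by count than coding genes, which was not tested. Of 230 tested, 120 (52.2%) were higher by the 1.5-fold rule and 2 lower, against 9.73% and 2.34% of 8046 protein-coding genes. The minimum was on the mean of all pools, so a gene could pass through the GFP high pools alone. The mean of the GFP low pools was under 10 CPM for 92 of the 230, among them 73 of the 120. It was so for 455 of the 8046 coding genes, among them 179 of the 783 higher ones. These shares are therefore a description and no support for a difference between gene types. Their median log2 fold change was 0.89, against 0.12. They made up 13.2% of the higher genes and 2.78% of all genes tested, and symbols marked as antisense were 27 of the 912 and 60 of the 8306. Whether counting used the strand is not given here, so reads of an antisense gene and its partner cannot be told apart. Among coding genes the median was -0.02 for those spanning under 10 kb and 0.27 for those of 100 kb or more. MALAT1, an RNA kept in the nucleus, stood at 11129 to 14025 CPM in GFP low and 15568 to 18551 CPM in GFP high pools.

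To see whether the difference began at the threshold, cells were placed in 7 bins of GFP share, under 0.2%, 0.2% to 1%, 1% to 3%, 3% to 10%, 10% to 20%, 20% to 40%, and 40% or more, which held 1133, 1697, 729, 574, 226, 155 and 99 cells. The 1303 cells of 1% to under 10% entered neither class. Values are medians over the 4 cultures. HSPA6 was at 0.916, 0.872 and 0.868 CPM in the lowest 3 bins, 3.55 at 3% to 10%, and then 21.9, 224 and 823 CPM. HSPA1B likewise stayed at 31.6, 29.3 and 38.3 CPM, then 61.4, 214, 635 and 1318 CPM. DNAJB1 was at 73.0, 66.1, 64.0 and 92.7 CPM in the 4 bins under 10%, and 198, 421 and 971 CPM above. The levels of these chaperones were flat up to 3% GFP, were higher at 3% to 10%, below the threshold of the GFP high class, and climbed further above it.

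The stress regulators climbed from the lowest bin. ATF3 was at 9.37, 20.7, 48.7, 83.1, 168, 395 and 560.1 CPM over the 7 bins. GADD45B was at 21.5, 42.0, 69.7, 110.2, 223, 360.0 and 378 CPM, and PPP1R15A at 16.0, 23.9, 29.1, 57.3, 100.2, 184 and 327 CPM. In ATF3 the ranges over the cultures of the first and second bins, 7.18 to 12.9 and 15.7 to 28.9 CPM, did not overlap, both bins being GFP low. The sum of immediate-early genes rose over all 7 bins, from 933 to 4061 CPM, while the sum of heat shock genes went from 12464 CPM in the first to 12320.2 in the fourth and 28737 in the seventh. Genes of G2 and mitosis had the reverse shape, with most of the fall at low GFP, from 5327 CPM in the first bin to 3245 in the third, and 2713, 2855 and 2533 CPM above 10%. The median of other UMIs also fell along the bins, from 21284 to 23748 in the first to 9511 to 11210 in the last, and its part in these courses was not tested.

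**Figure D5:**
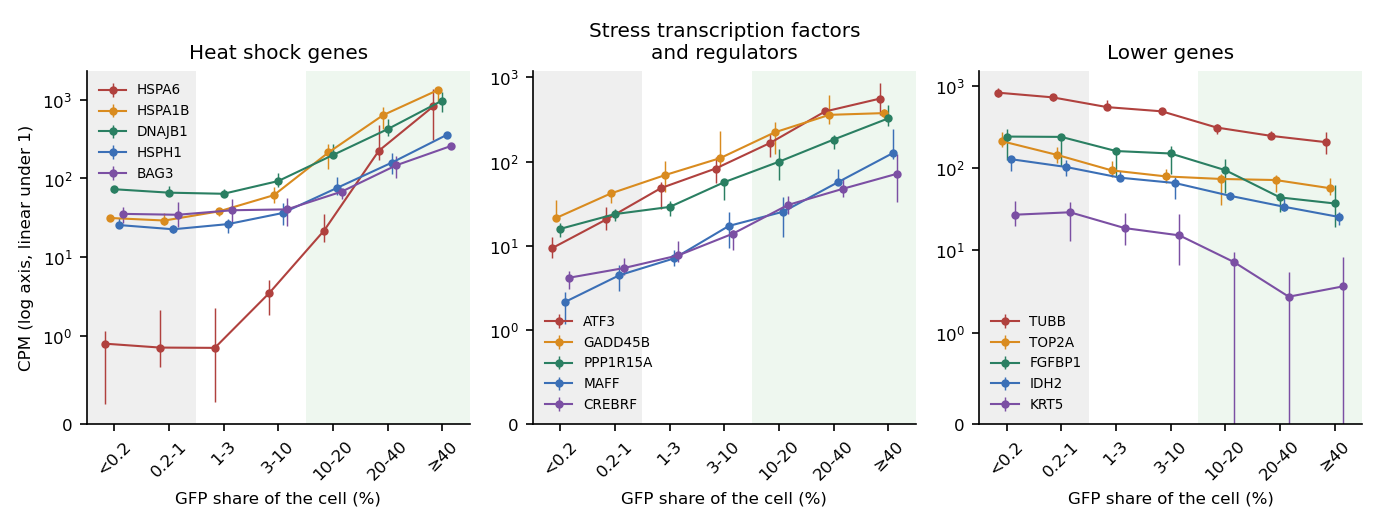
CPM (y axis, log axis, linear under 1) by GFP share of the cell (x axis, 7 bins, percent). Points are medians and bars the range over the 4 cultures, shading marks GFP low (grey) and GFP high (green), and points are shifted sideways for clarity. Heat shock genes (left) are flat below 3% and steep above 10%, ATF3 and the other regulators (middle) climb from the lowest bin, and TUBB and others (right) decline.

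The last question was whether the classes differed in their response to E2, read as each later culture against 0 h of the same class. There is 1 culture per time, so these are values with 95% counting intervals, which are of the plain ratio without the added 1 and cover counting error only, and no test of the difference. The estrogen list holds genes that earlier readings of these cells had picked, and is no independent evidence of direction. Its median over 25 genes was 0.22, 0.43 and 0.45 at 2, 4 and 8 h in GFP low cells and 0.19, 0.24 and 0.33 in GFP high cells. ESR1, the receptor, was itself lower in GFP high cells, at 51.7, 47.3, 38.4 and 38.6 CPM against 34.6, 43.6, 29.2 and 30.1 CPM, with overlapping pools (edgeR log2 fold change -0.34 ± 0.11 SE, adjusted p = 0.0082). Without the 0 h culture edgeR did not call it (adjusted p = 0.051). Between classes, 3 of the 25 were higher and 2 lower by the 1.5-fold rule, and edgeR called 13 higher and 9 lower.

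Some targets had like values in both classes. SIAH2, a ubiquitin ligase, had log2 fold changes of 0.89, 0.98 and 0.98 in GFP low and 1.18, 1.41 and 1.39 in GFP high cells. DHRS3, a retinal reductase, had 1.55, 2.56 and 2.68 against 1.67, 2.50 and 3.18. Its GFP high values started from 3.07 CPM at 0 h and had wide intervals, 0.41 to 3.96, 1.34 to 4.81 and 2.14 to 5.45. Counting intervals of the classes stood apart for 14 of the 75 values of 25 genes and 3 times. The GFP high value was the larger in 3 of them (CCND1 at 2 and 4 h and KRT19 at 8 h) and the smaller in 11, in 6 genes. No such count over all genes tested is given here, so this split describes the listed genes only. CCND1, the cyclin D1 gene, had 0.20 (0.15 to 0.25) at 2 h in GFP low and 0.69 (0.53 to 0.85) in GFP high cells. G0S2, an inhibitor of lipolysis, went from 19.6 CPM at 0 h to 132, 179 and 109 CPM in GFP low cells and from 11.5 to 57.2, 24.9 and 19.8 CPM in GFP high cells. Its log2 fold change at 4 h was 3.13 (2.97 to 3.43) and 1.05 (0.20 to 2.09). RGS10, a regulator of G protein signalling, went from 17.2 to 74.6, 80.0 and 66.8 CPM and from 23.8 to 46.9, 34.9 and 30.1 CPM, and at 8 h the log2 fold changes were 1.89 (1.71 to 2.20) and 0.33 (-0.29 to 0.99). NRIP1, a corepressor, had 0.81, 0.66 and 0.67 against -0.25, -0.44 and 0.22, from a starting level of 27.8 CPM in GFP low and 51.5 CPM in GFP high cells. HSPA1B moved by -0.19, -0.31 and -0.14 in GFP low and -0.35, -0.38 and -0.32 in GFP high cells, and ATF3 by -0.87, -0.49 and -0.51 and by -0.26, -0.24 and -0.29.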

How the data were processed

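Single-cell RNA counts of Ishikawa cells were used as deposited: per the submitters' processing notes, the authors aligned reads to hg38 with Cell Ranger 3.1.0, and each value is a count of UMIs per gene and barcode. Strand use in counting is not given in the sources used here. The culture of each barcode was taken from the deposited MULTI-seq calls. A cell was kept with between 8500 and 35000 UMIs, between 2700 and 6000 detected genes, and less than 7% of UMIs from the mitochondrial genome. The comparison left out barcodes with no time call and those the tags marked as doublets, and no other doublet caller was run.

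Counts were summed per class and culture into 8 pools. A gene entered with a mean of 10 CPM or more over the pools. The 1.5-fold rule used log2((CPM + 1)) differences at each of 4 times. Pools were tested with edgeR 4.0.16 in R 4.3.3 (quasi-likelihood, culture as a block, plain totals, Benjamini-Hochberg 0.05). The block pairs the high and low pool of the same culture. DESeq2 1.42.0 was an alternative. An exact permutation test over 4 pairs cannot go below 0.125. Python 3.11.15, numpy 2.4.6, scipy 1.17.1, pandas 2.3.3 and matplotlib 3.10.9 were used.

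Named were the 12 genes with the largest smallest fold each way, the highest and lowest of each list, the heat shock genes past the rule, and ESR1, TOP2A and MKI67. Other genes given with values were chosen after their values were seen. The members and gene lists were chosen with earlier results of these data known. On simulated pools for this comparison, with 8306 genes, edgeR recovered 21 of 50 genes changed 1.25-fold, 45 of 50 at 1.5-fold and 50 of 50 at 2- and 3-fold. It called 9 of 8106 unchanged genes. The simulated pools held few changed genes and no difference between cultures, so these counts do not give the error rate in the real pools. Alternatives covered thresholds, depth, division, filters, scaling, pseudocount, tool, block and each culture left out. Cells of any called barcode were added as an alternative after seeing the data. Intervals cover counting error only, since 1 library was sequenced. Some genes of the lists are counted but not reported here by name.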

Additional observations from a re-analysis of the deposited data

Results flagged for a closer look

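Of 113 values with 4 cultures, 8 had 1 culture far from the other 3 by Dixon's test, which chance gives in about 1 in 20 groups. The log2 fold change of HSPH1 was 2.89 at 0 h and 2.43 to 2.51 at the other times. For FGFBP1 it was -2.62 at 0 h against -1.47 to -1.29. For BOP1, a ribosome biogenesis factor, it was -1.19 at 0 h against -0.70 to -0.66, and for DNAJB2, a co-chaperone, 1.39 at 0 h against 1.90 to 2.00. STARD4, a sterol carrier, was at 0.82 at 8 h against 0.24 to 0.33, and SQLE, squalene epoxidase, at -0.41 at 4 h against -1.22 to -1.10. The median of the estrogen targets was 0.034 at 4 h against 0.32 to 0.34, and that of the 2 stromal markers -0.48 at 4 h against -0.97 to -0.90.

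Among barcodes with no time call, which entered no comparison between times, 7.66% of the 2819 within the limits were GFP high (95% exact binomial interval 6.71% to 8.71%).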

How the results depend on the processing

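By the 1.5-fold rule, 912 genes were higher and 193 lower. The higher count was 598 with GFP high set at 5%, 399 at closer depth, 240 with a minimum of 50 CPM, 1453 with no minimum but 1 count in every pool, 1785 at the smaller fold and 307 at 2-fold. The lower count was 119 with GFP high at 5%, 302 with every called barcode (added after seeing the data), 102 with a minimum of 50 CPM, 345 with TMM, 356 with DESeq2's factors, 648 at the smaller fold and 25 at 2-fold. Leaving out 1 culture gave 962 to 1130 higher and 224 to 298 lower, the latter without 4 h. The edgeR counts of 3455 and 1874 became 1963 higher at closer depth, 1156 and 1008 with a minimum of 50 CPM, 5195 higher with no minimum and 1180 lower without cells holding TOP2A or MKI67. Leaving out 1 culture gave 3041 to 3264 higher and 1601 to 1762 lower. Without the culture block that pairs the pools, edgeR called 3309 higher and 1730 lower, and DESeq2 called 2959 and 1526. The median of translation factors, -0.02, was 0.011 with the upper UMI limit and 0.030 in cells with no TOP2A or MKI67 UMI. It was 0.0088 with every called barcode and 0.018 as a mean over cells. In cells with no TOP2A or MKI67 UMI the median was 0.035 for G2 and mitosis and -0.016 for both estrogen targets and T-47D markers. The edgeR log2 fold change of G2E3 was then 0.56. The cause was not tested, save that 25 of 50 genes of G2 and mitosis then remained above the minimum. Of 1396 size values of named genes under alternatives, 263 moved by more than their spread over cultures. Among genes past the 1.5-fold rule 0 changed sign, and changes of sign in the other named genes were not counted. Of 1396 edgeR values, 41 lost their call. Low UMI counts limit HSPA6 in GFP low pools, at 10 to 17 UMIs each.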
